A study of Canis lupus familiaris with 6 samples.

Results

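Immediate early transcription factors are encoded by genes that cells switch on within minutes of a stimulus, without first making new protein. A group of 10 such genes was chosen by name: FOS, FOSB, FOSL2, JUN, JUNB, JUND, EGR1, ATF3, IER2 and MYC. The deposited table held 9 of them among its 23299 genes, and ATF3 was not analysed here. The 6 libraries of messenger RNA came from adipose-derived stem cells of the dog (fibroblast-like precursors isolated from fat) at day 14 of adipogenic differentiation. In 3 libraries the cells had received 1 µM bisphenol A (BPA), a plastics monomer that binds oestrogen receptors, and in 3 they had received the solvent DMSO (control). Both groups were cultured for 2 days and then given the same differentiation medium, with the glucocorticoid dexamethasone at 1 µM, the PPARG agonist rosiglitazone at 200 nM and insulin at 10 µg/mL. The labels give neither the number of donor dogs nor whether replicates are separate cultures, so p-values here measure only the spread between these libraries, which may be technical.

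FOS and JUN proteins belong to the bZIP class of DNA-binding proteins and pair with each other to form the transcription factor AP-1. FOS proteins need a JUN partner to bind DNA, whereas JUN proteins can also pair among themselves. Growth factor and stress kinases act on factors such as SRF and its ELK partners, already present in the cell, which turn these genes on. Their messages are short-lived, and their induction is cut back by phosphatases and RNA-binding proteins that the same signals induce. EGR1 is a zinc-finger factor driven by the same SRF route, and MYC, which pairs with MAX, promotes ribosome production and growth. In mouse preadipocyte lines, forced MYC expression is known to block conversion to fat cells.

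Values are in TPM, a transcript's abundance per length relative to the total of its library, and differences are on the scale of log2(TPM + 1). The libraries held between 19649 and 20321 genes above 0, and their read depth is unknown. The first principal component over the 12277 tested genes took 79.8% of the variance. It did not separate the groups: its scores were -29.9, -0.10 and 61.1 in BPA replicates 1, 2 and 3, against -28.1, 11.3 and -14.4 in control replicates 1, 2 and 3. The 2 libraries farthest out in the positive direction were BPA replicate 3 and, well behind it, control replicate 2. Of the stromal marker list, 6 of 7 measured genes reached 1 TPM in some library and NT5E did not. Of the 8 adipocyte markers only PPARG stayed under 1 TPM in every library. All 7 endothelial markers stayed under 1 TPM throughout. Of 5 leukocyte markers PTPRC and ITGAM did too, and the 5 summed to between 31.2 and 52.1 TPM with BPA and between 28.5 and 39.6 TPM in control. Of the 3 tested, 1 had a higher and 2 a lower mean with BPA (median log2 difference -0.19). In 1 every BPA library lay below every control library, where 3.98% of tested genes lay so.

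The immediate early genes varied strongly from library to library, 7 of the 8 tested in 1 shared order, and did not separate BPA from control. All 9 measured members were highest in BPA replicate 3, and in all 9 control replicate 2 was the highest of the control libraries. Over all tested genes, 38.9% were highest in BPA replicate 3, and in 47.1% control replicate 2 was the highest control. The 2 groups overlapped for all 9 members, where 9.37% of tested genes did not overlap in either direction. By limma with Benjamini-Hochberg adjustment over all tested genes, 0 of the 8 tested members passed, as did 0% of all genes. At an unadjusted p under 0.05 there were also 0 members, against 3.58% of all genes. FOSB lay under the expression filter (a mean log2(TPM + 1) of at least 1) and was not in that fit.

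**Figure D1:**
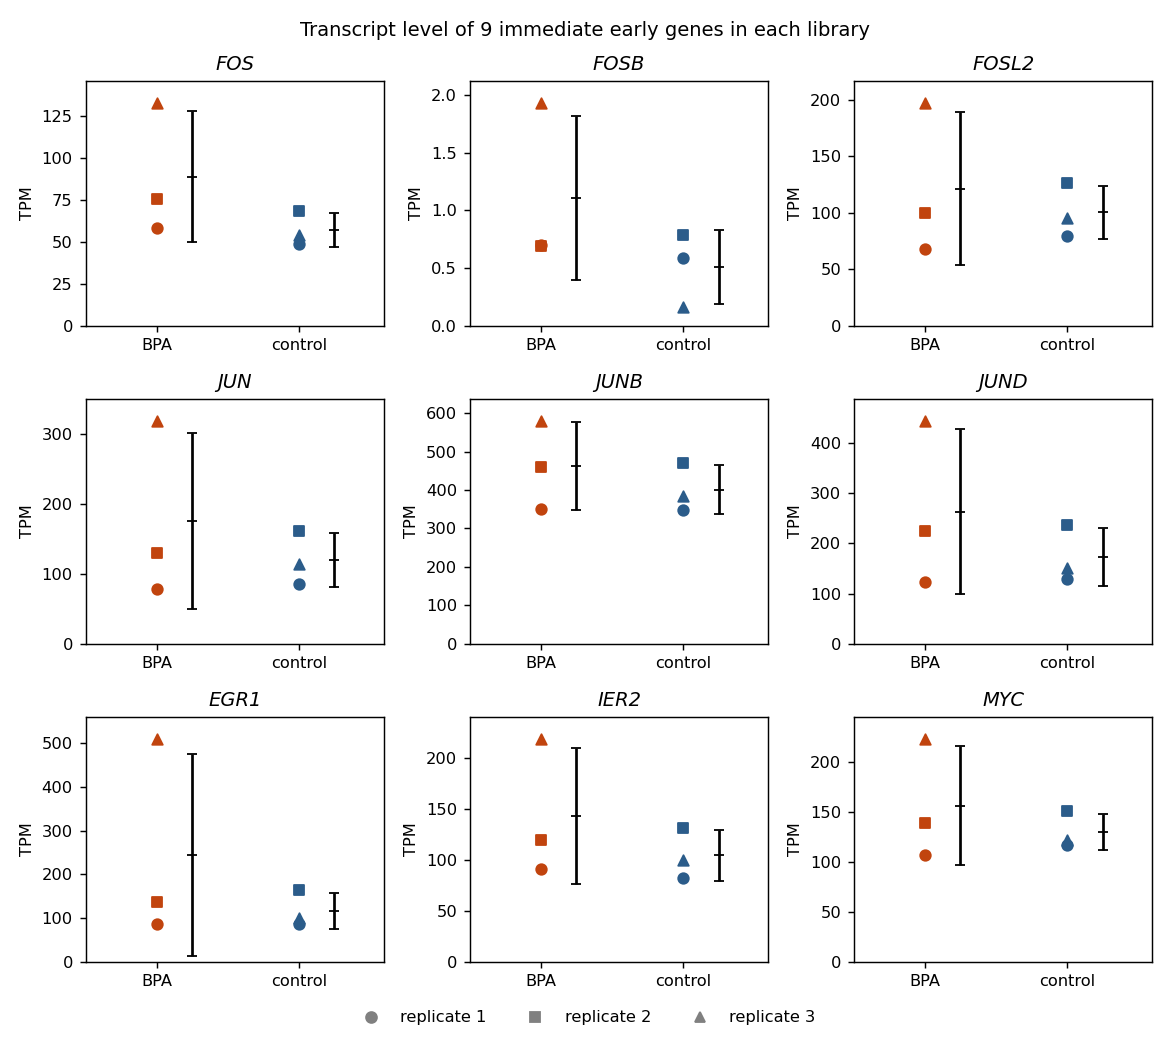
TPM of each member (vertical axis, linear from 0, its own scale in each panel) in the 3 BPA libraries and the 3 control libraries. Marker shape gives the replicate number, and the bar beside each group its mean ± SD (n = 3). BPA replicate 3 is the highest point in all 9 panels, and the other BPA libraries lie among the control libraries or near them.

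FOS, the founding member of the FOS family, was present at 58.3, 75.7 and 133 TPM in BPA replicates 1, 2 and 3, against 48.8, 68.5 and 53.8 TPM in control replicates 1, 2 and 3. Only control replicate 2 reached into the BPA range, lying above BPA replicate 1. FOS had a mean of 88.9 ± 38.9 TPM in the BPA libraries and 57.0 ± 10.3 TPM in the control libraries (SD, n = 3 each). The log2 difference was 0.56 (SE 0.32, 95% interval from -0.22 to 1.34), with an unadjusted p of 0.13 and an adjusted p of 0.901 by limma. The exact two-sided permutation p was 0.2, where 3 against 3 libraries can give no less than 0.1. FOS had the smallest limma p of the 8 tested members, and the 7 others ranged up to 0.714.

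FOSL2 encodes FRA2, a FOS protein that lacks the strong activation domain of FOS. It was present at 67.5, 99.7 and 197 TPM in BPA replicates 1, 2 and 3, against 79.2, 126 and 95.4 TPM in control replicates 1, 2 and 3. The lowest and the highest of the 6 values were both BPA libraries. The log2 difference was 0.16 (SE 0.41, 95% interval from -0.85 to 1.17; limma adjusted p = 0.923). FOSB was nearly silent, at 0.702, 0.686 and 1.93 TPM in BPA replicates 1, 2 and 3, against 0.583, 0.781 and 0.160 TPM in control replicates 1, 2 and 3. It was under 2 TPM in every library, and its exact permutation p was 0.3.

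JUNB, which often opposes JUN at promoters of growth genes, was the most abundant member. It was present at 350, 459.8 and 579 TPM in BPA replicates 1, 2 and 3, against 348, 471 and 384 TPM in control replicates 1, 2 and 3. JUNB also varied least, with a highest value 1.66 times its lowest. The log2 difference was 0.19 (SE 0.21, 95% interval from -0.34 to 0.72; limma adjusted p = 0.901), the narrowest interval of the 8. JUN, the classical partner of FOS and a target of JNK kinases, was present at 78.1, 130.2 and 318 TPM in BPA replicates 1, 2 and 3, against 85.1, 161 and 114 TPM in control replicates 1, 2 and 3. Its lowest and highest values were again both BPA libraries.

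JUND, the JUN protein least dependent on stimulation, was present at 122 TPM in BPA replicate 1, 225 TPM in BPA replicate 2 and 444 TPM in BPA replicate 3. In control replicates 1, 2 and 3 it was at 129, 237 and 151 TPM. BPA replicate 1 was thus below every control library and BPA replicate 3 above every one. The log2 differences of JUN and JUND were 0.35 (SE 0.54) and 0.46 (SE 0.50), with exact permutation p of 0.7 for each.

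EGR1 had the widest range of the tested members. It was present at 86.2, 137 and 509 TPM in BPA replicates 1, 2 and 3, against 85.4, 164 and 101 TPM in control replicates 1, 2 and 3. BPA replicate 3 held 4.44 times the mean of the 5 other libraries, while BPA replicates 1 and 2 lay inside the control range. The mean was 244 ± 231 TPM with BPA and 117 ± 41.4 TPM in control (SD, n = 3 each). The log2 difference was 0.70 (SE 0.68, 95% interval from -0.97 to 2.36; limma adjusted p = 0.901; exact permutation p = 0.6).

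IER2, a small nuclear protein induced with FOS, was present at 90.9, 119 and 218 TPM in BPA replicates 1, 2 and 3, against 82.3, 131 and 99.6 TPM in control replicates 1, 2 and 3. Its log2 difference was 0.38 (SE 0.35; exact permutation p = 0.5). MYC was present at 107, 139 and 223 TPM in BPA replicates 1, 2 and 3, against 117, 151 and 122 TPM in control replicates 1, 2 and 3. Its log2 difference was 0.21 (SE 0.28, 95% interval from -0.48 to 0.90; exact permutation p = 0.7). In both genes, BPA replicate 3 lay above every control library and the other BPA libraries lay among the controls or beside them.

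The levels followed an order that held only in part. JUNB exceeded JUND in 6 of 6 libraries, by a mean of 1.11 log2 units in level (SD 0.41). JUND exceeded EGR1 in 5 of 6 libraries and EGR1 exceeded JUN in 5 of 6. JUN exceeded MYC in 2 of 6 libraries although its mean TPM was higher, so these neighbours could not be ordered beyond their spread. MYC exceeded IER2, IER2 exceeded FOSL2 and FOSL2 exceeded FOS, each in 6 of 6 libraries. FOSB lay below FOS by 5.33 units of log2(TPM + 1) (SD 0.24, n = 6 libraries). FOSB was at most 1.93 TPM, where the added 1 narrows this gap and its spread. Apart from FOSB, the members were abundant transcripts, FOS lying above 85.1% of tested genes and JUNB above 96.9%.

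Every tested member differed from the control mean in BPA replicate 3 in the same direction, by log2 steps of 0.54 (JUNB), 0.78 (MYC), 0.99 (FOSL2), 1.08 (IER2), 1.22 (FOS), 1.41 (JUND), 1.45 (JUN) and 2.17 (EGR1). The median step of all tested genes in that library was -0.01. The EGR1 step lay above 99.6% of tested genes and the JUNB step above 76.6%. Control replicate 2 showed a smaller step of the same kind against the other controls, from 0.33 (MYC) to 0.81 (EGR1), where the median of all tested genes was 0.03. EGR1, JUND and JUN had the 3 largest steps in both libraries.

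**Figure D2:**
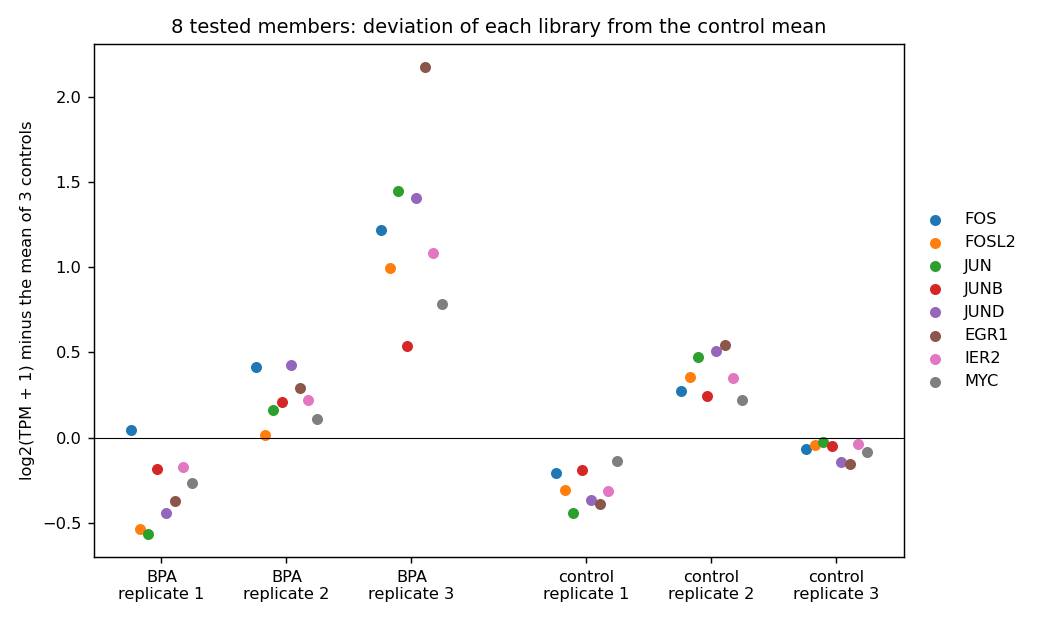
Deviation of each library from the mean of the 3 control libraries in log2(TPM + 1) (vertical axis), for the 8 tested members (colours), in the 3 BPA libraries (left) and the 3 control libraries (right). The members lie from 0.54 to 2.17 in BPA replicate 3, and all 8 lie above 0 in control replicate 2.

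The ranking of the remaining libraries was shared too. For 7 of the 8 tested members the libraries ran in the order BPA replicate 3, control replicate 2, BPA replicate 2 and control replicate 3, with BPA replicate 1 and control replicate 1 last. Of all tested genes 15.2% had this order. FOS was the exception, with BPA replicate 2 above control replicate 2 and BPA replicate 1 above control replicate 3. The SD of a member over the 6 libraries was 0.53 log2 units at the median, against 0.20 for all tested genes. The members' SDs lay between the 70.5th and the 98.6th percentile of tested genes, JUNB being lowest and EGR1 highest.

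With all libraries, 8 of 8 tested members had a higher mean with BPA (median log2 difference 0.36), where 56.6% of all tested genes did (median 0.03). Of single libraries left out, only BPA replicate 3 changed this direction, and 8 of 8 stayed higher without any other 1. Without BPA replicate 3, 3 of 8 members lay above control and 5 below, with a median of -0.02, and 57.6% of all tested genes lay above. FOS then differed by 0.23 (SE 0.19), JUNB by 0.01 (SE 0.18) and IER2 by 0.02 (SE 0.23). Below control then lay FOSL2 at -0.26 (SE 0.26), JUN at -0.20 (SE 0.34), MYC at -0.08 (SE 0.17), EGR1 at -0.04 (SE 0.34) and JUND at -0.01 (SE 0.37). Each of the 8 had a limma adjusted p of 0.999 in that fit. Without both BPA replicate 3 and control replicate 2, an alternative added after seeing the data, 7 of 8 members lay above control (median 0.17), where 63.9% of all tested genes did (median 0.05). Leaving out control replicate 2 alone raised the median to 0.57, leaving out BPA replicate 1 raised it to 0.73 and leaving out control replicate 1 lowered it to 0.18.

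**Figure D3:**
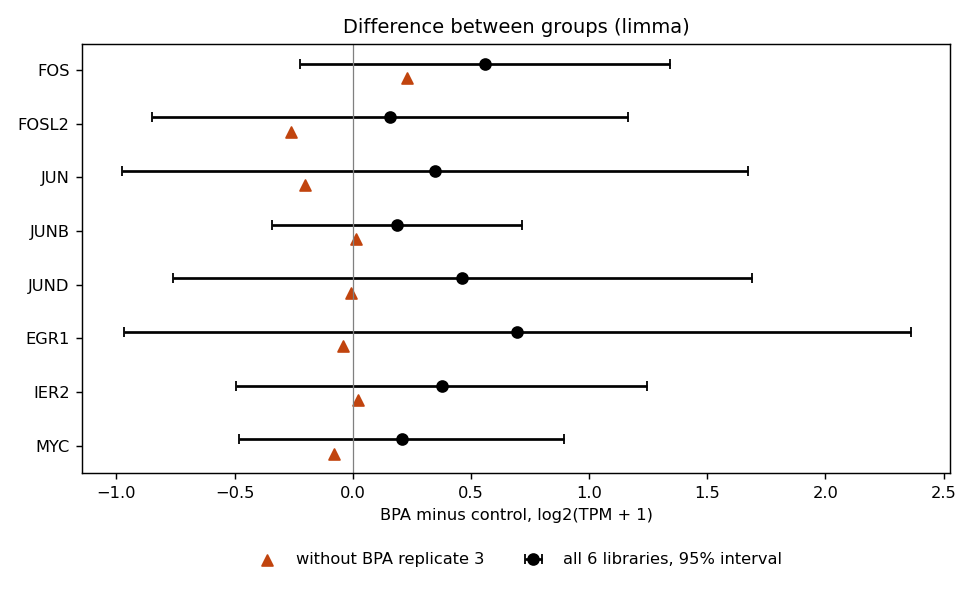
Difference of BPA minus control in log2(TPM + 1) (horizontal axis) for the 8 tested members. Circles with bars are the limma estimate and its 95% interval over all 6 libraries, and triangles the estimate without BPA replicate 3. All 8 intervals include 0, and 5 of the triangles lie below 0.

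The balance between the FOS and JUN families was nearly constant. JUN, JUNB and JUND made up 81.3%, 82.2% and 80.2% of the summed TPM of the 6 FOS and JUN genes in BPA replicates 1, 2 and 3, against 81.4%, 81.7% and 81.3% in control replicates 1, 2 and 3. The share averaged 81.2% ± 1.03 with BPA and 81.4% ± 0.19 in control (SD, n = 3 each). With FOSL1, a FOS gene outside the group, also in the total, it averaged 79.9% ± 1.14 with BPA and 80.2% ± 0.12 in control. The sum of the 3 JUN genes ranged from 551 to 1341 TPM with BPA and from 563 to 869 TPM in control.

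Within the JUN family the makeup did shift between libraries. JUNB took 51.7%, 46.4% and 34.6% of the AP-1 sum in BPA replicates 1, 2 and 3, against 50.4%, 44.2% and 48.1% in control replicates 1, 2 and 3. JUND took 18.1%, 22.7% and 26.5% in BPA replicates 1, 2 and 3, against 18.7%, 22.3% and 18.9% in control replicates 1, 2 and 3. The library with the most AP-1 message, BPA replicate 3, thus had the least JUNB share and the most JUN and JUND share. FOS took 8.61%, 7.64% and 7.93% in BPA replicates 1, 2 and 3, against 7.05%, 6.43% and 6.74% in control replicates 1, 2 and 3. Its share was higher in each BPA library than in any control library, which was noticed after the values were seen. Taken relative to the same sum, 1% of tested genes lay so.

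**Figure D4:**
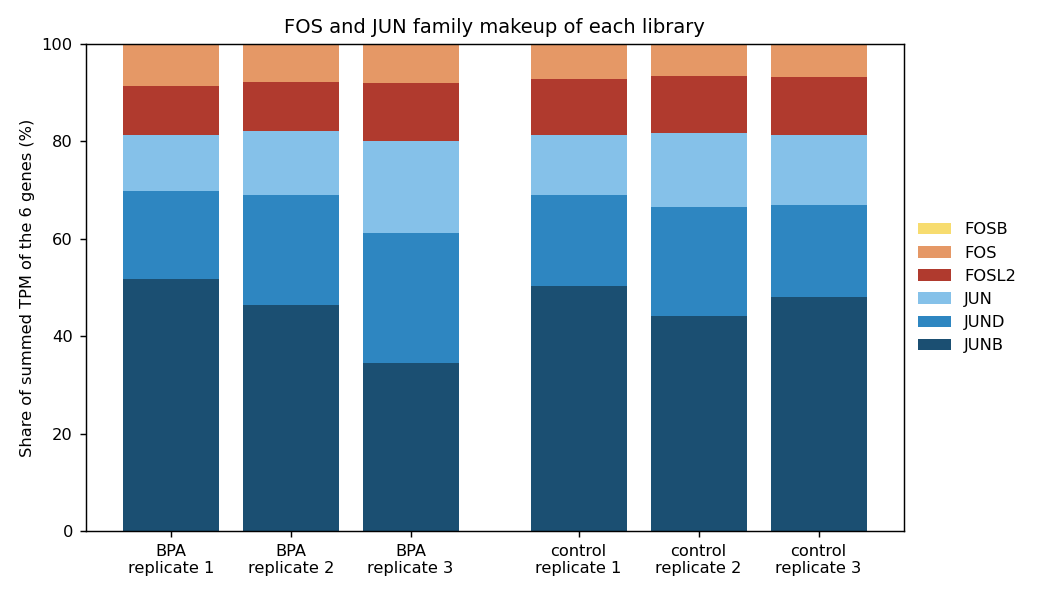
Share of each FOS and JUN gene in the summed TPM of the 6 genes (vertical axis, percent) in the 3 BPA libraries (left) and the 3 control libraries (right). The blue JUN family takes from 80.2% to 82.2% of every bar, and the JUNB part is smallest, at 34.6%, in BPA replicate 3.

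Ratios of TPM within a library do not depend on its scaling. They were compared after the values were seen and carry no test. FOS relative to FOSL2 stood at 0.864, 0.759 and 0.674 in BPA replicates 1, 2 and 3, against 0.615, 0.543 and 0.564 in control replicates 1, 2 and 3. FOS relative to JUNB stood at 0.166, 0.165 and 0.229 in BPA replicates 1, 2 and 3, against 0.140, 0.146 and 0.140 in control replicates 1, 2 and 3. FOS relative to MYC stood at 0.544, 0.544 and 0.595 in BPA replicates 1, 2 and 3, against 0.417, 0.455 and 0.441 in control replicates 1, 2 and 3. All 3 ratios, and that of FOS to IER2, were higher in every BPA library than in every control library.

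The ratios of FOS to JUN, to JUND and to EGR1 overlapped between the groups. Of the 28 ratios among the 8 tested members, 6 did not overlap. These 6 were 4 of the 7 that hold FOS and 2 of the other 21, which share members and are not independent. Set against each member in turn, the share of other tested genes with no overlap in either direction was 16.6% for FOS, 4.26% for FOSL2, 3.29% for IER2, 3.1% for MYC and 3.01% for JUNB. It was 1.96% for EGR1, 1.25% for JUN and 1.21% for JUND. FOS thus had the highest such share of the 8. These shares were taken on differences of log2(TPM + 1), which for genes of low level depart from ratios of TPM. The 2 ratios without FOS were FOSL2 relative to IER2, at 0.742, 0.835 and 0.902 in BPA replicates 1, 2 and 3 against 0.963, 0.962 and 0.958 in control replicates 1, 2 and 3, and JUN relative to EGR1, also lower with BPA.

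**Figure D5:**
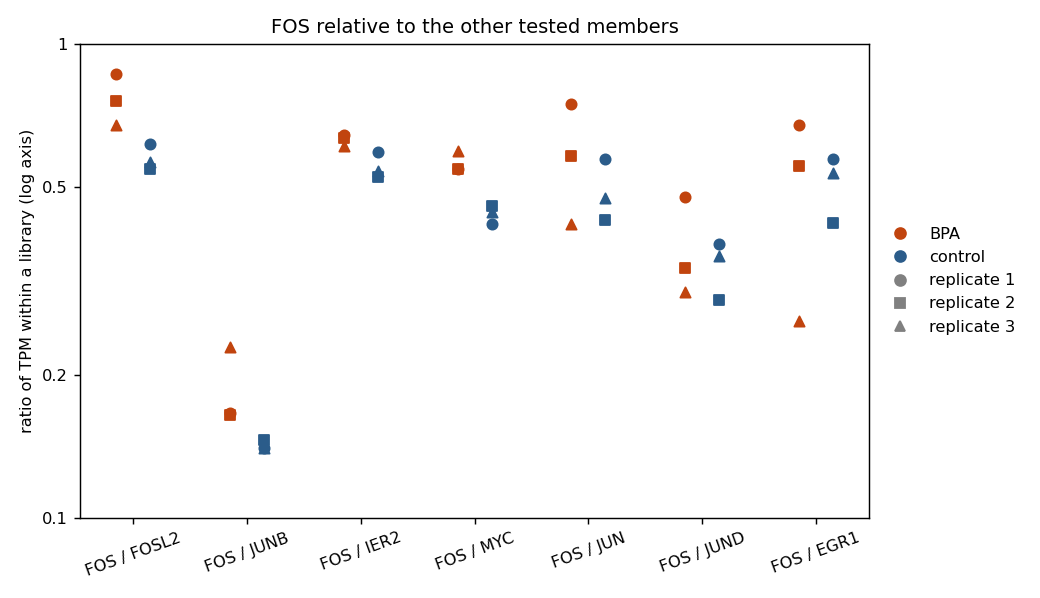
TPM of FOS divided by that of each other tested member in the same library (vertical axis, log scale), for the BPA libraries and the control libraries, with marker shape for the replicate number. The BPA points lie above all control points for FOSL2, JUNB, IER2 and MYC and overlap them for JUN, JUND and EGR1.

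The first principal component was taken as a covariate in an alternative added after seeing the data. The log2 difference of FOS was then 0.29 (SE 0.04), with an unadjusted p of 0.00038 and an adjusted p of 0.0823 by limma, so it did not pass. FOSL2 was at -0.19 (SE 0.04, adjusted p = 0.146). In that fit 15.8% of all tested genes had an unadjusted p under 0.05, against 3.58% without the covariate. The component was computed from the same values, so this fit is not independent of the ratios above.

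The genes whose profile over the 6 libraries lay closest to that of FOS, by the mean absolute difference of centred log2(TPM + 1), were CCDC78 (0.03), SEMA6C (0.04), MEGF9 (0.05), HNRNPUL2 (0.05) and NR2F2 (0.05), where the median tested gene differed by 0.37. IER2, at 0.10, was the closest member and ranked 114th among tested genes with a symbol. Closest to EGR1 were RIPOR1 (0.05), HEG1 (0.06), PRRC2B (0.06), SOGA1 (0.06) and SETD1B (0.06), with JUN the closest member at 0.19 and rank 369. Closest to MYC were GAB2, LIG1, PLEKHG4, SLC15A4 and PDPK1, each at 0.02, with JUNB the closest member at 0.09 and rank 703. Many genes outside the group thus lay closer to each of the 3 than any other member did. Each of these 15 genes had a limma adjusted p of 0.901 for BPA against control.

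Other immediate early genes were mostly highest in BPA replicate 3. Of 29 tested, 23 were, against 38.9% of all tested genes, and 9 had the full order of libraries shared by the members, against 15.2%. Of the same 29, 23 had a higher mean with BPA (median log2 difference 0.18). Without BPA replicate 3, 12 of 29 lay above control. Over all tested genes the shares above control were 56.6% with all libraries and 57.6% without BPA replicate 3. None of the 29 passed by limma. At an unadjusted p under 0.05 there was 1 higher and 1 lower, against 1.87% and 1.7% of all tested genes. CCN2, a secreted matricellular protein, had a mean of 3091 ± 1999 TPM in the BPA libraries and 2302 ± 610 TPM in the control libraries. CCN1, its relative, had a mean of 1517 ± 450 TPM in the BPA libraries and 1264 ± 183 TPM in the control libraries. The stress-inducible GADD45B was at 497, 512 and 485 TPM in BPA replicates 1, 2 and 3, against 597, 623 and 681 TPM in control replicates 1, 2 and 3. It was lower in every BPA library, with a log2 difference of -0.35 (SE 0.09; limma unadjusted p = 0.0075, adjusted p = 0.901), and 3.98% of tested genes had every BPA library below every control library. ID1, an inhibitor of bHLH factors, was higher in every BPA library, at 244 ± 11.8 TPM with BPA and 204 ± 14.2 TPM in control, where 5.38% of tested genes lay so.

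Feedback inhibitors of the same signals had 13 of 15 tested members with a higher mean with BPA (median log2 difference 0.31), against 56.6% of all tested genes. Without BPA replicate 3 it was 8 of 15 (median 0.09), against 57.6%. None passed by limma and 2 had an unadjusted p under 0.05, where 1.87% of all genes did so as higher. DUSP6, a phosphatase of ERK kinases, was at 55.1, 57.3 and 71.7 TPM in BPA replicates 1, 2 and 3, against 42.4, 49.9 and 40.0 TPM in control replicates 1, 2 and 3. SPRY2, a Sprouty inhibitor of receptor signalling, was at 52.9, 52.4 and 55.2 TPM in BPA replicates 1, 2 and 3, against 40.1, 45.2 and 43.3 TPM in control replicates 1, 2 and 3. Both were higher in each BPA library than in any control library, where 5.38% of all tested genes lay so. Their log2 differences were 0.46 (SE 0.14) and 0.31 (SE 0.08), with limma adjusted p of 0.901. DUSP1, a MAP kinase phosphatase that glucocorticoids also induce, had a mean of 998 ± 199.9 TPM in the BPA libraries and 828 ± 52.1 TPM in the control libraries. ZFP36L2, an RNA decay factor, had a mean of 264 ± 197 TPM in the BPA libraries and 146 ± 69.0 TPM in the control libraries, and both overlapped.

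Upstream kinases, receptors and SRF factors had 14 of 17 tested members with a higher mean with BPA, against 56.6% of all tested genes. Without BPA replicate 3 it was 5 of 17, against 57.6%. PDGFRB, a growth factor receptor of stromal cells, was at 32.5, 61.1 and 206 TPM in BPA replicates 1, 2 and 3, against 28.9, 84.4 and 46.3 TPM in control replicates 1, 2 and 3, the order of libraries seen in the members. ELK4, a partner of SRF, was at 69.4 ± 3.14 TPM with BPA and 61.0 ± 2.01 TPM in control without overlap (log2 difference 0.18, SE 0.08). Every BPA library lay above every control library in 5.38% of all tested genes. The kinase gene RPS6KA3 had a mean of 11.3 ± 0.61 TPM in the BPA libraries and 12.3 ± 0.34 TPM in the control libraries. Other bZIP partners were mixed, with 5 of 9 higher and 4 lower. ATF4, the stress-response factor, was abundant and close in both groups, at 2849 ± 146 TPM with BPA and 2929 ± 124 TPM in control. BATF2, MAFK and CREM had log2 differences of 0.35 (SE 0.21), 0.23 (SE 0.26) and -0.19 (SE 0.10). By limma 0 members of these lists passed, and 0 had an unadjusted p under 0.05.

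Genes known to respond to these factors were mixed. Of 12 tested AP-1 and EGR1 responsive genes, 6 had a higher and 6 a lower mean with BPA (median log2 difference 0.01). Vimentin (VIM), an intermediate filament protein of stromal cells, had a mean of 4532 ± 588 TPM in the BPA libraries and 4441 ± 325 TPM in the control libraries. IL11 and tissue factor (F3) were lower in each BPA library than in any control library, where 3.98% of all tested genes lay so. Their log2 differences were -0.39 (SE 0.09) and -0.40 (SE 0.10). By limma 0 passed, and 2 had an unadjusted p under 0.05, both lower, against 1.7% of all genes. Of 13 tested MYC-responsive growth genes 6 were higher and 7 lower, and 0 passed. By limma 1 of them (NCL, higher) had an unadjusted p under 0.05, where 1.87% of all genes did so as higher. Nucleolin (NCL) was at 462 ± 41.6 TPM with BPA and 383 ± 25.9 TPM in control and NOLC1 at 66.8 ± 0.97 TPM with BPA and 59.5 ± 0.53 TPM in control, both higher in each BPA library than in any control library (5.38% of all tested genes). The cell cycle kinase CDK4 was lower in each BPA library than in any control library (3.98% of all tested genes), at 319 ± 43.3 TPM with BPA and 367 ± 9.98 TPM in control. MYC partners and antagonists had 7 of 11 higher and 4 lower, with 0 passing by limma or at an unadjusted p under 0.05. MXD4, a MYC antagonist, had a mean of 83.3 ± 27.3 TPM in the BPA libraries and 65.8 ± 10.1 TPM in the control libraries. MLX had a mean of 81.0 ± 7.64 TPM in the BPA libraries and 88.5 ± 2.85 TPM in the control libraries. MXD1 and MGA had log2 differences of 0.20 (SE 0.12) and 0.14 (SE 0.10).

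Some markers of other cell states shared the members' order of libraries and some did not. Of 6 tested stromal markers, 5 were highest in BPA replicate 3 and 3 (COL1A1, COL3A1 and ENG) had the full order. Over all tested genes, 38.9% were highest in BPA replicate 3 and 15.2% had the full order. COL1A1, a fibrillar collagen, was at 2398, 4330 and 24502 TPM in BPA replicates 1, 2 and 3, against 2170, 8114 and 3903 TPM in control replicates 1, 2 and 3. The proteoglycan DCN ran another way, at 1358, 1180 and 1005 TPM in BPA replicates 1, 2 and 3, against 1163, 1050.1 and 1059 TPM in control replicates 1, 2 and 3, with its lowest value in BPA replicate 3. PDGFRA was higher in every BPA library, at 106 ± 19.3 TPM with BPA and 74.7 ± 8.10 TPM in control (limma adjusted p = 0.901). It was the only 1 of the 6 tested stromal markers without overlap, where 5.38% of all tested genes lay above in this way. The 7 stromal markers summed to between 9034 and 38397 TPM with BPA and between 8848 and 17213 TPM in control, mostly the 2 collagens in BPA replicate 3.

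Of 7 tested adipocyte markers, CEBPA alone had the members' order, where 15.2% of all tested genes had it. ADIPOQ, PLIN1, CIDEC and FABP4 were higher in each BPA library than in any control library, where 5.38% of all tested genes lay so. LEP was lower in each, where 3.98% lay so, and the median log2 difference of the 7 was 1.18. None passed by limma, and at an unadjusted p under 0.05 there were 4 higher and 1 lower, against 1.87% and 1.7% of all tested genes. The 8 adipocyte markers in the table summed, mostly as LPL and LEP, to between 636 and 898 TPM with BPA and between 609 and 720 TPM in control. Of 5 tested smooth muscle and pericyte markers, NOTCH3 and MCAM had the members' order, against 15.2% of all tested genes. The mean with BPA was higher for 2 of the 5 and lower for 3 (median log2 difference -0.11). In 1 every BPA library lay below every control library, against 3.98% of all tested genes. None passed by limma, and 1 had an unadjusted p under 0.05, as lower, against 1.7%. Without BPA replicate 3, 0 of 5 lay above control, against 57.6% of all tested genes. NOTCH3 was at 5.72, 10.1 and 54.4 TPM in BPA replicates 1, 2 and 3, against 5.39, 20.5 and 9.52 TPM in control replicates 1, 2 and 3. The mean deviation of this list from control was -0.48, -0.11 and 0.60 log2 units in BPA replicates 1, 2 and 3, against -0.29, 0.28 and 0.004 in control replicates 1, 2 and 3. Heat shock genes, a stress marker list, summed to between 4854 and 6320 TPM with BPA and between 5391 and 5752 TPM in control. Of these, 3 of 8 were highest in BPA replicate 3, close to the 38.9% of all tested genes. In 3 of the 8 every BPA library lay above every control library, against 5.38% of all tested genes. The mean with BPA was higher for 4 and lower for 4, and 0 had an unadjusted p under 0.05 by limma. The smooth muscle list, mostly TAGLN, summed to between 8561 and 10759 TPM with BPA and between 9837 and 11092 TPM in control. In these bulk libraries fewer cells of a type and less RNA per cell cannot be told apart, and the part of cell makeup and stress in the members' levels was not tested.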

How the data were processed

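The authors deposited 1 table of log2 values, named as normalized log TPM, for 23299 genes in 6 libraries. The deposited log2 values were back-transformed (2 to the power of the value, less 1) and summed to 1000000 in each library, which is the total of TPM with a pseudocount of 1. Per the labels' protocols, the libraries were stranded mRNA libraries for Illumina sequencing. No aligner, counting tool, build or annotation is named in the sources used here, and no coordinates are given. Read depth cannot be had from TPM, so there is no counting interval, and a gene's TPM also depends on the others in its library.

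The filter kept 12277 genes (mean log2(TPM + 1) at or above 1). They were tested for BPA against control with limma 3.58.1 in R 4.3.3 (empirical Bayes with a trend, two-sided, Benjamini-Hochberg, threshold 0.05). The fit was first checked on simulated data whose genes varied independently, unlike these libraries, so the check gives no error rate for them. Members, lists and tests were chosen with earlier results of these data known. Named from each further list were the 2 genes of smallest p and the 2 of highest mean TPM. Alternatives were other filters, pseudocounts and scalings, no trend, a replicate block and leaving out libraries. The labels do not say whether replicate numbers pair the libraries, and the main fit took them as unpaired. One gene of the AP-1 and EGR1 responsive list is not reported here and was left out of its counts.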

Additional observations from a re-analysis of the deposited data

How the results depend on the processing

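In the 14 alternatives planned and the 2 added after seeing the data, 0 members passed the adjusted threshold. Over all tested genes the count that passed was 0 with all libraries and 0 under the other scalings, pseudocounts, the stricter filter and no trend. It was 6 without filter, 1 without BPA replicate 3, 2 without both BPA replicate 3 and control replicate 2, and 4 with the first principal component as a covariate. Leaving out single libraries gave from 0 to 1. Median centring and quantile normalization kept 8 of 8 members above control (medians 0.28 and 0.34). Without BPA replicate 3 the log2 difference turned for FOSL2 (-0.26), JUN (-0.20), JUND (-0.0071), EGR1 (-0.042) and MYC (-0.080). Over single libraries left out, these reached 0.51 (FOSL2), 0.81 (JUN), 0.92 (JUND), 1.23 (EGR1) and 0.45 (MYC), each without BPA replicate 1. Without BPA replicate 3 and control replicate 2 it turned for FOSL2 (-0.08). With the component as a covariate it turned for FOSL2 (-0.19), JUN (-0.11) and MYC (-0.024). The JUN family share differed by -0.20 percentage points between BPA and control, and from -0.695 to 0.333 when single libraries were left out. The replicate block left 0 genes passing, with 264 at an unadjusted p under 0.05 against 439 without it. The SE of each tested member was smaller with the block, for FOS 0.27 against 0.32 and for JUN 0.40 against 0.54. The correlation of same-numbered libraries' deviations was 0.718, -0.44 and -0.233 for replicates 1, 2 and 3. With 79.8% of the variance on the first principal component, these correlations cannot show whether the numbers pair the libraries.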
